A study of Mus musculus with 11 samples.

Results

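Drug-metabolising cytochrome P450 enzymes were followed in ribosome footprints of mouse liver. The set holds 10 of the 22019 genes in the deposited table: the 9 enzymes Cyp2e1, Cyp1a2, Cyp2f2, Cyp2a5, Cyp2b9, Cyp2b10, Cyp2c29, Cyp2c55 and Cyp3a11, and Por, their reductase. Members were chosen by Ensembl identifier. The table holds identifiers only, and the names are those that came with the list: ENSMUSG00000025479 for Cyp2e1, ENSMUSG00000032310 for Cyp1a2, ENSMUSG00000052974 for Cyp2f2, ENSMUSG00000005547 for Cyp2a5, ENSMUSG00000040660 for Cyp2b9, ENSMUSG00000030483 for Cyp2b10, ENSMUSG00000003053 for Cyp2c29, ENSMUSG00000025002 for Cyp2c55, ENSMUSG00000056035 for Cyp3a11 and ENSMUSG00000005514 for Por.

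Livers came from male WT mice on a High Fat High Sugar (HFHS) diet or a Chow Diet, with no further treatment; no source used here states the age of the mice or their time on the diet. Monosome footprints, protected by a single ribosome, were counted in 3 HFHS and 3 chow libraries, and disome footprints, protected by a ribosome stacked behind another, in 2 HFHS and 3 chow libraries. Libraries are named by the barcode in their column name. Library totals were 1196240 to 1612324 counts in HFHS monosomes, 795145 to 1248781 in chow monosomes, 235748 to 238837 in HFHS disomes and 147212 to 279331 in chow disomes. In both footprint classes the chow library AGCTA stood apart. Its correlation with the other chow libraries was 0.82 and 0.83 in monosomes and 0.79 in disomes, against 0.98 and 0.96 between those others. In AGCTA, 30 genes far above every other monosome library took 4.15% of monosome counts and 3.97% of disome counts, against at most 0.038% in any other library. These genes were picked by their AGCTA monosome level, so only the disome share is a separate measure. None of the P450 genes or Por was among those 30, and results without AGCTA are given below.

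Cytochrome P450 enzymes of the endoplasmic reticulum insert oxygen into drugs, toxins, steroids and fatty acids, and the liver is their main site. They receive their electrons from NADPH through the reductase that Por encodes. Many of their genes are switched on by receptors that sense foreign compounds: CAR (the constitutive androstane receptor), PXR (the pregnane X receptor) and the aryl hydrocarbon receptor.

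Together the 10 genes took 1.66% ± 0.036 of all counts in HFHS monosomes and 1.87% ± 0.23 in chow monosomes (SD, n = 3 each). In disomes they took 1.69% ± 0.076 in HFHS (n = 2) and 2.17% ± 0.20 in chow (n = 3). Levels below are in CPM (counts scaled to library size) after TMM scaling within the comparison named, with HFHS libraries ordered by barcode as CTAGA first, GATCA next and GCATA last, and chow libraries as ATCGT first, AGCTA next and CGTAA last. A disome library of GATCA was not analysed here. Coding lengths were not available, so levels of different genes are not set against each other.

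The first comparison asked how the HFHS diet changed the monosome footprints of these genes. Cyp2a5, Cyp2b10, Cyp2c29, Cyp2c55 and Por fell, to between 21.9% and 72.7% of their chow level, and no member rose among the 9 that could be tested. The member not tested, Cyp2b9, had 27 counts in HFHS monosomes against 1 in chow monosomes (below). Cyp3a11, the enzyme nearest in use to human CYP3A4, stood at 27.0% of its chow level but missed the threshold of edgeR's quasi-likelihood test. Cyp2e1, Cyp1a2 and Cyp2f2 did not pass either. Over all 6754 genes tested, 1.63% were called lower and 3.02% higher, with an adjusted p below 0.05 as the threshold. Cyp2b10 and Cyp2c55 passed the filter on low counts only through their chow libraries, so a fall was the only direction open to them. Of the other 7 genes tested, 3 fell. Over these 7 the median log2 fold change was -0.46, against -0.016 over all genes tested. Members were chosen with earlier results of these data known, so the medians and shares describe this list only.

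**Figure D1:**
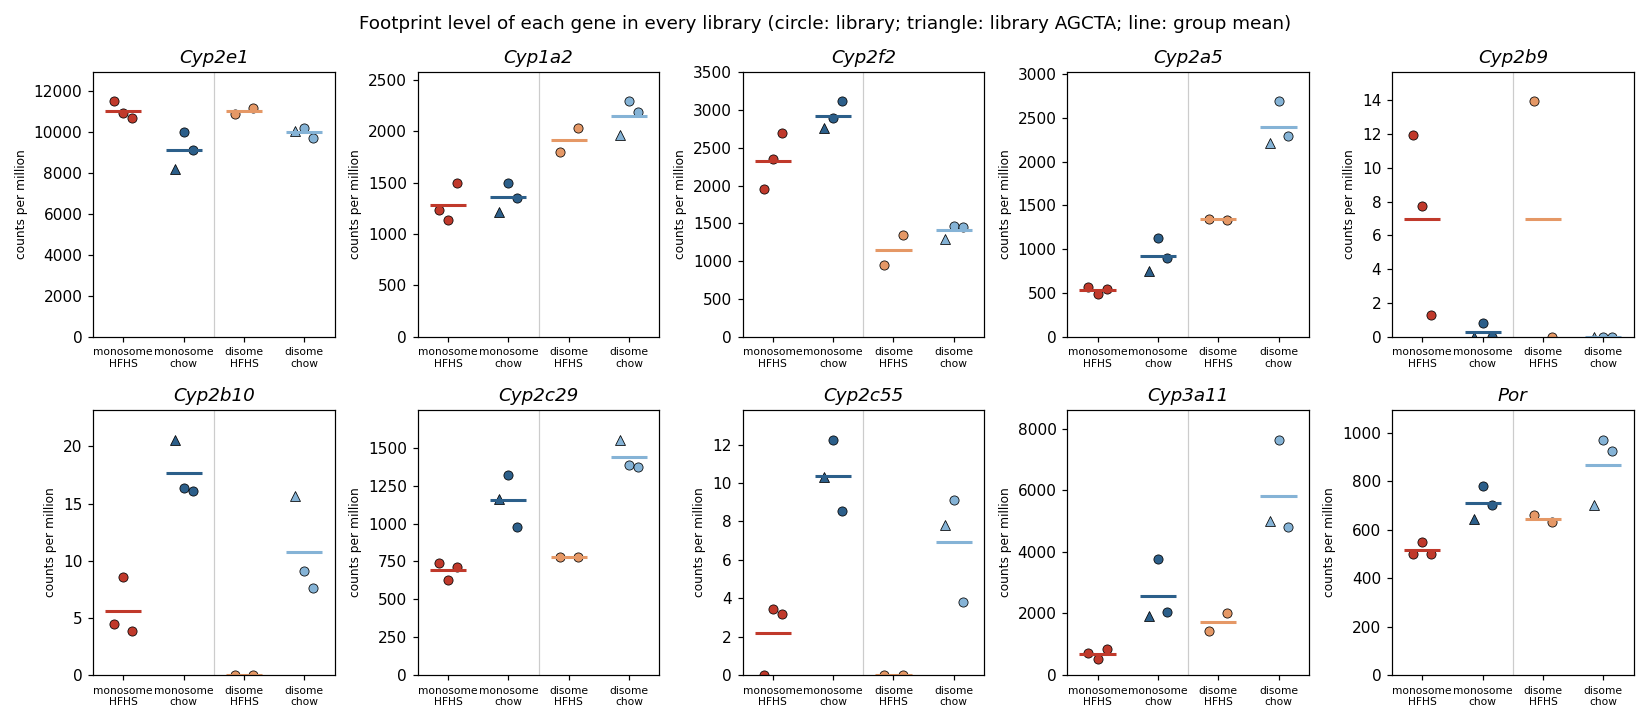
Footprint level of the 10 genes in CPM (y axis, linear from 0, scaled within each footprint class) in every library of the 4 groups (x axis); circles are libraries, triangles the library AGCTA, and horizontal lines group means. Cyp3a11 averages 694 in HFHS monosomes and 2567 in chow monosomes, while the HFHS and chow libraries of Cyp1a2 overlap.

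Cyp3a11 oxidises a wide range of drugs and steroids and is the standard mouse target of PXR. Its monosome level was 722, 526 and 834 CPM in HFHS livers, against 3757, 1908 and 2035 CPM in chow livers. Every HFHS library lay below every chow library, and the chow library ATCGT lay well above the other chow libraries. The means were 694 ± 156 CPM in HFHS and 2567 ± 1033 CPM in chow (SD, n = 3 each). The log2 fold change was -1.89 with a standard error (SE) of 0.37, and edgeR's adjusted p was 0.0809. Without ATCGT the log2 fold change was -1.50 with an adjusted p of 3.13e-05. Over 13 alternatives the log2 fold change ran from -2.06 to -1.50 and the adjusted p from 3.13e-05 to 0.208, with 6 of them below the threshold.

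Cyp2a5, the coumarin hydroxylase that also oxidises nicotine, had 566, 485 and 545 CPM in HFHS monosomes, against 1132, 749 and 898 CPM in chow monosomes. The groups did not overlap, and the log2 fold change was -0.80 ± 0.14 (adjusted p = 0.000572). Cyp2c29, which oxidises arachidonic acid and is inducible through CAR, had 741, 629.8 and 713 CPM in HFHS monosomes, against 1323, 1164 and 979 CPM in chow monosomes. These groups were also separate, with a log2 fold change of -0.73 ± 0.13 (adjusted p = 0.00059). Both genes passed under every alternative run.

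Cyp2b10, the classical target of CAR and of phenobarbital, was a gene of few footprints. It had 6, 10 and 6 counts in HFHS monosomes, against 20, 16 and 17 counts in chow monosomes, or 4.48, 8.58 and 3.85 CPM against 16.4, 20.6 and 16.1 CPM. All 3 HFHS libraries lay below all chow libraries, with a log2 fold change of -1.66 ± 0.37 (adjusted p = 0.00557). Cyp2b10, like Cyp2c55, passed the count filter only through its chow libraries. For either gene, the separation and the p-value are therefore no test of direction. Cyp2c55, another oxidiser of arachidonic acid, had 0, 4 and 5 counts in HFHS monosomes, against 15, 8 and 9 counts in chow monosomes. Its log2 fold change was -2.19 ± 0.55 (adjusted p = 0.0165), a size that rests on very few HFHS counts. Leaving out any of the 3 chow libraries, or the HFHS library CTAGA, ended the Cyp2c55 call, with adjusted p between 0.0514 and 0.141.

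Cyp2b9, a close relative of Cyp2b10 whose liver expression is higher in female mice, had the opposite order in its counts. It had 16, 9 and 2 counts in HFHS monosomes, against 1, 0 and 0 counts in chow monosomes. All HFHS libraries lay above all chow libraries, although the HFHS library GCATA held no more than 2 counts. Summed over each group, 27 HFHS counts against 1 chow count gave a ratio of 19.8 per library total, with an exact 95% interval of 3.26 to 809 that covers counting error only. Cyp2b9 did not reach the filter and has no test in the main fit; with no filter its adjusted p was 0.00080. Adding the Cyp2b9 and Cyp2b10 counts into 1 row gave a log2 fold change of -0.54 ± 0.34 (adjusted p = 0.456).

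Cyp2b9 and Cyp2b10 lie in the same gene cluster on chromosome 7, and no source used here states how reads that match both were counted. The same uncertainty holds for Cyp2a5, Cyp2c29, Cyp2c55 and Cyp3a11, which also have close copies. Their start regions are shown because these 2 genes had opposite count patterns. Each sequence is the RefSeq window from 250 bases before to 50 bases after the gene's start on GRCm38.p6, read 5′ to 3′ along the gene, at chr7:26173159-26173458 (plus strand) for Cyp2b9 and chr7:25897408-25897707 (plus strand) for Cyp2b10. Capitals mark matches on either strand to AGGTCA or AGTTCA (hexamers that nuclear receptors such as CAR and PXR bind), GCGTG (the core of the element that the aryl hydrocarbon receptor binds) or TATAAA (the TATA box).
Cyp2b9: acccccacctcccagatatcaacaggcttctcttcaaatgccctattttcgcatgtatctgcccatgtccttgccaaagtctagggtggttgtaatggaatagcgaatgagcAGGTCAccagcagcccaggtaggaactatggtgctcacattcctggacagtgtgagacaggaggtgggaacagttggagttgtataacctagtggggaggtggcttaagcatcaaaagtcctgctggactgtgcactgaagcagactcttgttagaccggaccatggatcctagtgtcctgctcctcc
Cyp2b10: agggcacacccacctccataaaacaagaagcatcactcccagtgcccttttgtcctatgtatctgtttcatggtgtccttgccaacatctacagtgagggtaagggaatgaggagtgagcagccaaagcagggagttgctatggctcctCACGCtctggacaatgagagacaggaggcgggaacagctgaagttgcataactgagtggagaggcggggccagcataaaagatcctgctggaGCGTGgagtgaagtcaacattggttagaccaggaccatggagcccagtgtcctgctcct
In a global alignment, 223 of 311 positions were identical (71.7%). AGGTCA occurred once in the Cyp2b9 window, with its leftmost base at position -138 from the start, and in no position of the Cyp2b10 window. GCGTG occurred in the Cyp2b10 window at positions -101 and -9 and not in that of Cyp2b9. Among all 32851 windows of this length, 16.3% held AGGTCA, 14.0% AGTTCA, 32.4% GCGTG and 13.6% TATAAA. These matches describe the letters only, and elements outside the window were not searched.

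The windows of Cyp3a11, Cyp2c29 and Cyp2a5, the genes called lower in disomes (below), are shown side by side with the same capitals. Of these, Cyp3a11 was not called in monosomes. They lie at chr5:145879805-145880104 (minus strand), chr19:39286835-39287134 (plus strand) and chr7:26835089-26835388 (plus strand).
Cyp3a11: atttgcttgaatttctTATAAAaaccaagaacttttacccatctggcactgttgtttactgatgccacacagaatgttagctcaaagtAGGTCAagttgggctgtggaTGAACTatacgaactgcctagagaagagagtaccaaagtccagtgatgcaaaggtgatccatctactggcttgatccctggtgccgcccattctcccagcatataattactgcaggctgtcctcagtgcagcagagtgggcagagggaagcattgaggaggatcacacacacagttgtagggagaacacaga
Cyp2c29: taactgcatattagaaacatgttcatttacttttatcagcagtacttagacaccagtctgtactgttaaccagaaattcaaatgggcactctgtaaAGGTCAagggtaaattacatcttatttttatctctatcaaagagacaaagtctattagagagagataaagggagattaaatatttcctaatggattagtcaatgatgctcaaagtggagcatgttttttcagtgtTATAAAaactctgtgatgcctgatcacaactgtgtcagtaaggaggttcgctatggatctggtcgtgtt
Cyp2a5: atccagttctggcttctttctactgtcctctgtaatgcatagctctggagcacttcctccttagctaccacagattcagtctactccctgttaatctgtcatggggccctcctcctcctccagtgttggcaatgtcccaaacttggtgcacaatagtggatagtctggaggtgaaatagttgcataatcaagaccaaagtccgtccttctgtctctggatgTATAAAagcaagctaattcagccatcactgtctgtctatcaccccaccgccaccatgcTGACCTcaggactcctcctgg
AGGTCA was present in all 3, at -162 in Cyp3a11, -154 in Cyp2c29 and, on the opposite strand and after the start, 30 in Cyp2a5. It also occurred in the windows of Cyp2f2 (-221), which was not called lower, and of Cyp2b9 (-138), which had no diet test in the main fits. The windows of Cyp2b10, Cyp2c55 and Por, which were called lower in monosomes, held no AGGTCA. A link between the motif and a fall was not tested. The Cyp3a11 window also held AGTTCA on the opposite strand at -142. TATAAA lay at -29 in Cyp2a5, at -19 in Cyp2c29 and at -234 in Cyp3a11. Of the 10 windows, those of Cyp2e1, Cyp1a2 and Cyp2c55 held TATAAA and none of the other motifs, that of Cyp2f2 held AGGTCA only, and that of Por held GCGTG at 3 positions.

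Por supplies electrons to all of these enzymes. It had 500.4, 547 and 497 CPM in HFHS monosomes, against 779, 644 and 700.3 CPM in chow monosomes, with no overlap. The log2 fold change was -0.46 ± 0.13 (adjusted p = 0.0336), and 7 of 13 alternatives put it above the threshold, with adjusted p up to 0.156. Por missed the threshold without ATCGT (adjusted p = 0.0952), CGTAA (0.116), CTAGA (0.156), GATCA (0.0637) or GCATA (0.114).

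Cyp2e1 oxidises ethanol, paracetamol and small solvents. It was the member with most counts, at 11499.7, 10937.5 and 10704 CPM in HFHS monosomes, against 10008, 8205 and 9101 CPM in chow monosomes. The groups did not overlap, and the log2 fold change of 0.28 ± 0.08 lay just outside the threshold (adjusted p = 0.0505; 0.0119 to 0.435 over its alternatives). Cyp2f2, which activates naphthalene and is enriched in periportal liver cells, had 1951, 2348 and 2693 CPM in HFHS monosomes, against 2901, 2759 and 3116 CPM in chow monosomes. Its log2 fold change was -0.33 ± 0.11 (adjusted p = 0.0951; 0.0219 to 0.472 over its alternatives). Cyp1a2, which oxidises caffeine and aromatic amines and is a target of the aryl hydrocarbon receptor, had 1232, 1138 and 1496 CPM in HFHS monosomes, against 1501, 1215 and 1356 CPM in chow monosomes. Its groups overlapped, with a log2 fold change of -0.08 ± 0.12 (adjusted p = 0.832), which ran from -0.19 without GCATA to 0.01 without GATCA.

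These footprints come from whole liver. Fewer cells of a type, less mRNA per cell and fewer ribosomes per mRNA cannot be told apart in them.

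Disome footprints were then compared between the diets, and 7 members could be tested in them. Cyp3a11, Cyp2a5 and Cyp2c29 fell in HFHS disomes to 29.7%, 55.8% and 54.4% of their chow level. No member rose, and Cyp2e1, Cyp1a2, Cyp2f2 and Por did not pass. Over all 2804 genes tested, 1.14% were called lower and 1.82% higher. The median log2 fold change was -0.44 over the 7 members and -0.025 over all genes tested, which again describes this list only.

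Cyp3a11 had 1444 and 2013 CPM in HFHS disomes, against 7646, 4999 and 4804 CPM in chow disomes. Both HFHS libraries lay far below every chow library, and the chow library ATCGT was again the highest. The log2 fold change was -1.75 ± 0.18 (adjusted p = 6.66e-20), from -1.88 to -1.51 over the 10 alternatives that keep both HFHS libraries. This SE borrows from the spread of all genes, so so small a p-value does not measure the spread of these few libraries alone. The adjusted p was below the threshold in all 10 but the fit of all 11 libraries together, where the log2 fold change was -1.68 and the adjusted p 0.18. With 1 HFHS disome library left out, the other is a single sample assumed to vary like the other group of the fit, so these alternatives are given as sizes only. The log2 fold change of Cyp3a11 was then -1.52 (without CTAGA) and -2.01 (without GCATA).

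Cyp2a5 had 1351 and 1331 CPM in HFHS disomes, against 2690.04, 2218 and 2293 CPM in chow disomes. The log2 fold change was -0.84 ± 0.18 (adjusted p = 0.000219). Cyp2c29 had 779.9 and 779.4 CPM in HFHS disomes, against 1386, 1554 and 1375 CPM in chow disomes, a log2 fold change of -0.88 ± 0.18 (adjusted p = 0.00019). In both genes the HFHS libraries were close to each other and clear of the chow range, and both calls held under every alternative run that keeps both HFHS libraries. With 1 HFHS library the log2 fold change of Cyp2a5 was -0.84 (without CTAGA) and -0.82 (without GCATA), and that of Cyp2c29 was -0.87 and -0.88.

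Por had 659 and 631 CPM in HFHS disomes, against 971, 703 and 922 CPM in chow disomes. The groups were separate, but the log2 fold change of -0.44 ± 0.19 did not pass (adjusted p = 0.25). Cyp2e1 had 10877 and 11153 CPM in HFHS disomes, against 10172, 10059.5 and 9729.7 CPM in chow disomes, a log2 fold change of 0.14 ± 0.16 (adjusted p = 0.772). Cyp1a2 and Cyp2f2 overlapped between the diets, with log2 fold changes of -0.17 ± 0.17 (adjusted p = 0.747) and -0.30 ± 0.18 (adjusted p = 0.493). Both sizes rest on which HFHS library is used. The log2 fold change of Cyp2f2 was -0.05 without CTAGA and -0.56 without GCATA, and that of Cyp1a2 was -0.07 without CTAGA and -0.25 without GCATA.

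The 3 members of few counts did not reach the filter in disomes. Cyp2b10 had 0 and 0 counts in HFHS disomes, against 2, 2 and 2 counts in chow disomes. Its chow level was 1.41 times a floor of 3 counts over the HFHS group, per library total. The exact 95% interval of its HFHS over chow ratio ran from 0 to 1.20, so a fall was not shown at this depth (counting error only). Cyp2c55 had 0 and 0 counts in HFHS disomes, against 2, 1 and 1 counts in chow disomes, and Cyp2b9 had 3 and 0 counts in HFHS disomes, against 0, 0 and 0 counts in chow disomes. A difference in Cyp2b9 or Cyp2c55 disomes was not detectable at this depth.

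**Figure D2:**
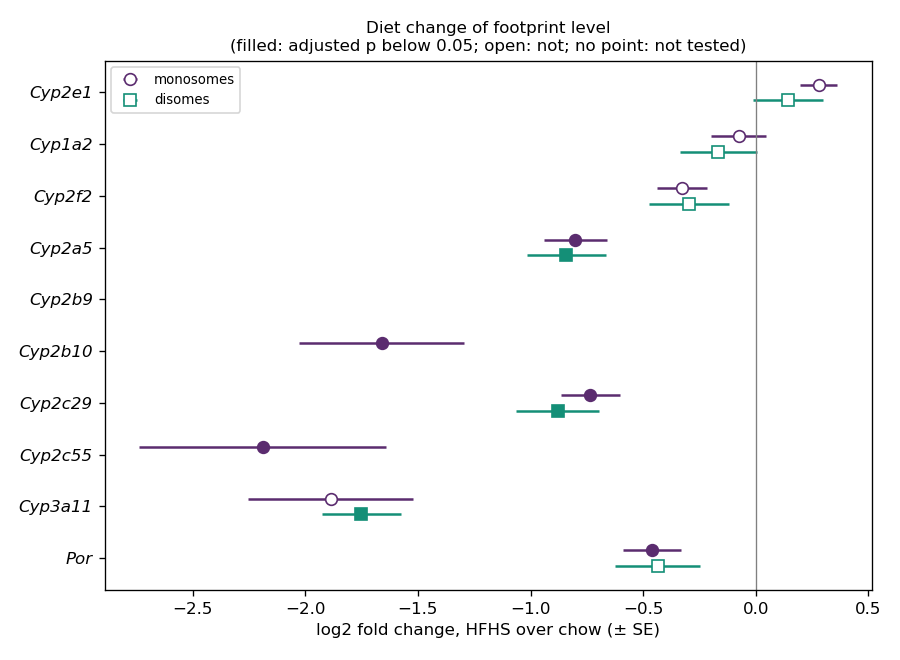
Log2 fold change of footprint level, HFHS over chow (x axis, with standard errors as bars), for each gene (rows) in monosomes (circles) and disomes (squares); filled symbols have an adjusted p below 0.05, open ones do not, and genes below the count filter have no symbol. Cyp2a5 and Cyp2c29 are filled in both classes, Cyp3a11 is open in monosomes (-1.89) and filled in disomes (-1.75), and Cyp2e1 lies above 0 in both without passing.

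The third comparison tested whether disome footprints responded to diet unlike monosome footprints of the same gene. No member differed among the 8 tested, with 0 at an unadjusted p below 0.05, in edgeR as well as 0 calls in DESeq2. Of all 7236 genes, 0% were called and 358 had an unadjusted p below 0.05. The disome change minus the monosome change, on the log2 scale, was 0.22 ± 0.52 for Cyp3a11, 0.05 ± 0.21 for Cyp2a5, -0.06 ± 0.21 for Cyp2c29 and 0.11 ± 0.23 for Por. It was -0.05 ± 0.14 for Cyp2e1, -0.0032 ± 0.20 for Cyp1a2 and 0.12 ± 0.20 for Cyp2f2. Among these 7 genes the standard error was widest for Cyp3a11. The fitted value for Cyp2b10 is not a measured size, because its HFHS disome libraries held no count.

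The last comparisons set disomes against monosomes within each diet, asking which members carried more stacked ribosomes than their monosome level, relative to the average gene. Cyp2a5 was higher in disomes and Cyp2f2 lower in disomes on both diets. Cyp3a11 passed as higher in HFHS and Cyp1a2 as higher in chow; whether these ratios differed between the diets is what the third comparison tested, and no member passed there. In HFHS livers 3 of 8 members tested were called, against 25.1% of all genes tested, and in chow livers 3 of 7, against 44.9%. The share in chow is close to that of all genes, so the number of calls says nothing particular about these enzymes. Cyp2c29, Cyp2e1 and Por did not pass on either diet. No source used here states whether disome and monosome libraries were sequenced together.

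Cyp2f2 had 1009 ± 260.5 CPM in HFHS disomes (n = 2), against 2363 ± 379.9 CPM in HFHS monosomes (n = 3), and 1307 ± 104 CPM in chow disomes, against 3181 ± 213 CPM in chow monosomes (n = 3 each). Its log2 ratio was -1.23 ± 0.16 in HFHS (adjusted p = 4.5e-06) and -1.28 ± 0.13 in chow (adjusted p = 1.65e-10). Taken within each barcode, with all 11 libraries scaled together, the log2 ratio was -1.25 (CTAGA) and -1.20 (GCATA) in HFHS, against -1.22 (ATCGT), -1.44 (AGCTA) and -1.42 (CGTAA) in chow. All 5 barcodes lay in a narrow band, and the diets overlapped.

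Cyp2a5 had 1174 ± 4.24 CPM in HFHS disomes, against 539 ± 42.7 CPM in HFHS monosomes, and 2226 ± 256 CPM in chow disomes, against 1006 ± 200.3 CPM in chow monosomes. The log2 ratio was 1.12 ± 0.14 in HFHS (adjusted p = 3.81e-07) and 1.15 ± 0.14 in chow (adjusted p = 2.22e-08). By barcode it was 1.04 and 1.09 in HFHS, against 1.01, 1.22 and 1.02 in chow, so that its disome excess was present in every library pair while its level differed between the diets.

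Cyp3a11 had 1515 ± 373.5 CPM in HFHS disomes, against 704 ± 159 CPM in HFHS monosomes, a log2 ratio of 1.10 ± 0.18 (adjusted p = 0.000262; 0.0754 with all 11 libraries in 1 fit, and from 4.66e-18 to 0.0754 over the 11 alternatives that keep both HFHS disome libraries). In chow it had 5398 ± 1521 CPM in disomes, against 2783 ± 1088 CPM in monosomes, a log2 ratio of 0.96 ± 0.37 that did not pass (adjusted p = 0.103; 5.25e-30 to 0.34 over its alternatives). With the barcode as a block the chow ratio was 0.98 and passed (adjusted p = 5.25e-30). By barcode the ratio was 0.78 and 1.07 in HFHS, against 0.78, 1.04 and 0.91 in chow. The chow library ATCGT had the highest level in both classes and the lowest of the 3 chow ratios.

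Cyp1a2 had a log2 ratio of 0.44 ± 0.13 in chow (adjusted p = 0.00604), which missed the threshold without both AGCTA libraries (0.37, adjusted p = 0.0781) and in 3 other alternatives. In HFHS the log2 ratio was 0.36 ± 0.14 (adjusted p = 0.0574), and 0.28 with the barcode as a block (adjusted p = 0.02; 0.011 to 0.341 over the 11 alternatives that keep both HFHS disome libraries). By barcode it was 0.33 and 0.24 in HFHS, against 0.37, 0.34 and 0.36 in chow. Cyp2e1 lay slightly below 0 in every barcode, from -0.30 to -0.14 in HFHS and from -0.23 to -0.06 in chow. Cyp2c29 lay on both sides of 0 in chow, from -0.18 to 0.16, and so did Por, from -0.22 to 0.07. The other 5 genes measured in this way kept 1 sign over all 5 barcodes.

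**Figure D3:**
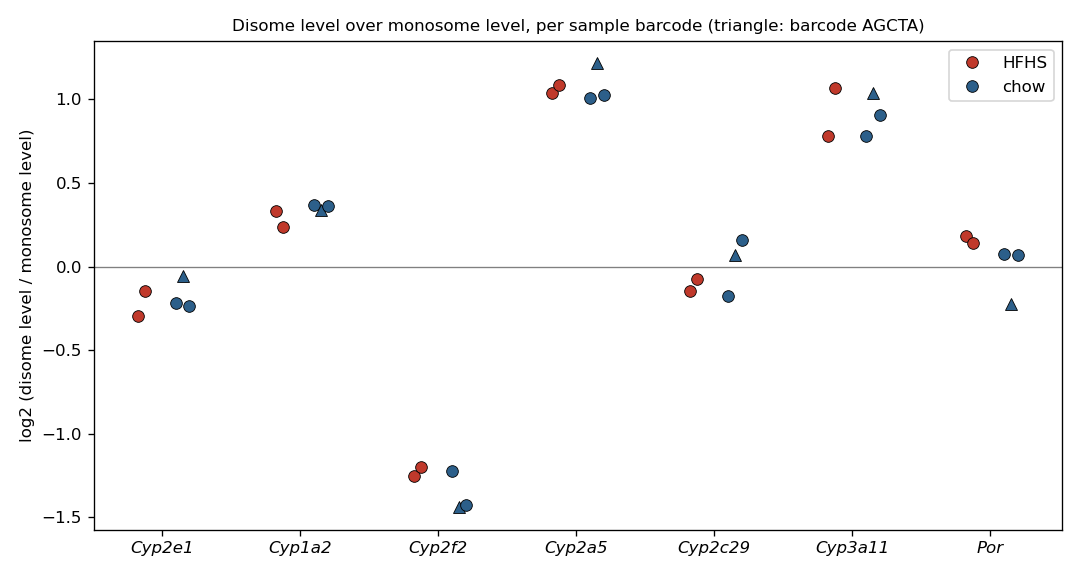
Log2 ratio of disome level to monosome level (y axis, all 11 libraries scaled together) for the 7 genes with enough counts (x axis), 1 point per sample barcode, 2 in HFHS and 3 in chow; triangles mark AGCTA. Cyp2a5 lies between 1.01 and 1.22 and Cyp2f2 between -1.44 and -1.20 in all 5 barcodes.

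Without the chow library AGCTA, the monosome calls were again 5 in number: Cyp3a11 passed (log2 fold change -2.06, adjusted p = 0.0369) and Cyp2c55 missed the threshold (-2.20, adjusted p = 0.0691). Cyp2a5 (-0.93, adjusted p = 0.000144), Cyp2c29 (-0.73, adjusted p = 0.00309), Cyp2b10 (-1.56, adjusted p = 0.0322) and Por (-0.52, adjusted p = 0.0328) stayed below it. Cyp2e1 (0.21, adjusted p = 0.435), Cyp1a2 (-0.15, adjusted p = 0.711) and Cyp2f2 (-0.37, adjusted p = 0.176) stayed above it. Leaving it out therefore moved 2 of the 9 genes across the threshold. In disomes, leaving out the AGCTA library left Cyp3a11 (-1.85, adjusted p = 1.94e-07), Cyp2a5 (-0.90, adjusted p = 0.00435) and Cyp2c29 (-0.83, adjusted p = 0.00916) called and the other 4 not, so the 3 disome calls were the same genes with and without it. Without both AGCTA libraries the chow ratio of disomes to monosomes was -1.31 for Cyp2f2 (adjusted p = 4.92e-09), 1.02 for Cyp2a5 (adjusted p = 2.69e-06) and 0.83 for Cyp3a11 (adjusted p = 0.107).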

How the data were processed

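Footprints of about 30 nt (monosomes) or 60 nt (disomes) were cut from a gel after RNase I digestion, per the labels' protocols; cutadapt 3.5 and Bowtie2 are named in the submitters' processing notes. The authors deposited raw counts of footprints per gene, not normalized. No source used here states the annotation or genome build, how strand was set, the use of molecular identifiers or what was done with reads that match several gene copies. Columns were placed in groups by footprint class and diet. No column of values was left unused.

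Counts were analysed over the whole table with edgeR 4.0.16 (R 4.3.3). Low counts were removed by filterByExpr (minimum count 10) and libraries scaled by TMM. Tests were quasi-likelihood F-tests (two-sided) with robust estimation, adjusted by Benjamini-Hochberg over every gene tested, at a threshold of 0.05. The standard error of a log2 fold change is its size over the square root of F. The fits were tested on simulated counts that took each gene's spread from the fits themselves, so an outlying library was not covered. DESeq2 1.42.0 (size factors, Wald test) and other settings were alternatives.

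Every member was named, whatever its values, and members and lists were chosen with earlier results of these data known. Lists of other P450 genes, receptors, haem genes and cell type markers, fixed by symbol, were not analysed here, since no table used here pairs Ensembl identifiers with symbols; the liver label was therefore not checked against markers. A floor of 3 counts in 1 library is 1.86 to 3.77 CPM (monosomes) or 10.7 to 20.4 CPM (disomes), for counting error only. No source says that samples are separate animals, so p-values refer to samples. The fits borrow part of the spread from all genes. In the disome diet fit the SE was 0.176 for Cyp3a11 (1729 ± 403 CPM in HFHS) and also for Cyp2a5 (1341 ± 13.7 CPM in HFHS). Very small p-values from so few libraries therefore do not measure a gene's own spread between samples. Libraries of 1 barcode in the 2 classes deviated from their group means together (r = 0.18 to 0.29 over 2123 genes, in each of 5 barcodes). Between unlike barcodes of the same diet r was -0.29 to 0.10. The 2 HFHS disome libraries deviate from their mean as mirror images, so their barcodes are not separate checks. The barcode, from the column names, was also fitted as a block.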

Additional observations from a re-analysis of the deposited data

How the results depend on the processing

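No member's value changed sign where it was called, either as reported or under the alternative. Among alternatives that gave an adjusted p, the monosome call was kept in 13 of 13 for Cyp2a5, 12 of 12 for Cyp2c29 and 10 of 10 for Cyp2b10. It was kept in 6 of 13 for Por and 5 of 9 for Cyp2c55. Of the tested members not called in monosomes, Cyp3a11 passed in 6 of 13, Cyp2e1 in 4, Cyp2f2 in 1 and Cyp1a2 in 0. In HFHS against chow monosomes, 5 members were called. With the Cyp2b and Cyp2c pairs each added into 1 row, where 8 rows were left, 3 were called. DESeq2 called 4, namely Cyp3a11 (adjusted p = 4.26e-05), Cyp2a5, Cyp2c29 and Por. It gave no adjusted p for Cyp2b10 or Cyp2c55. With no filter edgeR called 7, of which Cyp2e1 (0.29, adjusted p = 0.0144) and Cyp2b9 (3.99, adjusted p = 0.00080) were higher. Leaving out single libraries gave 3 to 6 (3 without the chow library CGTAA or without the HFHS library CTAGA). The replicate block by barcode gave 4 members called in chow, 4 in HFHS and 0 for the difference of diet effects, against 3, 3 and 0 without it; it changed no call beyond those of Cyp3a11 in chow and Cyp1a2 in HFHS.

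Background counts moved more. Among all genes, 204 were higher and 110 lower in HFHS monosomes, against 125 higher with a minimum count of 50, 56 lower with DESeq2, and as few as 85 higher and 57 lower without CGTAA. In disomes 51 were higher and 32 lower, against 16 and 10 with DESeq2, 21 lower with no filter and 21 lower with all 11 libraries in 1 fit, and at least 20 higher and 18 lower with 1 library left out. For disomes against monosomes, 1017 were higher and 1097 lower in chow (412 and 486 with a minimum count of 50), and 854 and 1010 in HFHS (611 lower with DESeq2, and 425 and 555 without the disome library CTAGA, which leaves 1 HFHS disome sample, assumed to vary like the monosome samples). With the block, 7 genes were lower in the difference of diet effects, against 0. Removing both AGCTA libraries was chosen after seeing the data. Disome depth limits Cyp2b9, Cyp2b10 and Cyp2c55.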
